A study of Mus musculus with 9 samples.

Results

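Fatty acid synthesis and desaturation were followed through 10 genes in mouse embryonic fibroblasts, namely Fasn, Acaca, Acly, Scd1, Scd2, Elovl5, Elovl6, Fads1, Fads2 and Srebf1. They were chosen by name for their place in the pathway, with no measured value in the rule, but with earlier results of these data known. All 10 had a row among the 16428 genes of the deposited table, and all 10 were among the 14560 genes tested, those with a mean of at least 10 normalized reads over the 9 libraries.

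The cells were fibroblasts of genotype CARM1f/f ER-Cre, in which both copies of Carm1 are floxed and ER-Cre is a recombinase that acts once an estrogen receptor ligand is bound. The CARM1 protein methylates arginines of histones and of transcriptional coactivators. KO cells had received 2 uM 4-OHT, the ligand that activates ER-Cre, for 6 days. CARM1i cells had received 1 uM TP-064, an inhibitor of the CARM1 enzyme, for 6 days. WT cells had received no treatment, and they carry the same floxed alleles and the same Cre. There were 3 libraries in each group. The labels give no promoter for the Cre, no age of the embryos and no count of embryos or clones, and they do not say whether replicates were separate cultures, so the p-values rest on a library-to-library spread that may be only technical. There were no 4-OHT cells with an unfloxed Carm1 and no cells labelled as vehicle, so the deletion and 4-OHT cannot be told apart, nor TP-064 and its solvent.

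Cytosolic fatty acid synthesis begins with ATP citrate lyase (Acly), which cleaves exported citrate to acetyl-CoA. Acetyl-CoA carboxylase (Acaca) turns acetyl-CoA into malonyl-CoA, and fatty acid synthase (Fasn) joins malonyl units into palmitate. Elovl6 lengthens palmitate, the stearoyl-CoA desaturases Scd1 and Scd2 place a double bond in saturated chains, and Fads2, Elovl5 and Fads1 act in turn on the essential fatty acids to give long polyunsaturated chains. Most of these genes are known targets of SREBP transcription factors, which are made as membrane precursors from Srebf1 and Srebf2, carried to the Golgi by Scap, retained in the endoplasmic reticulum by Insig1 and Insig2, and cut by the proteases of Mbtps1 and Mbtps2. LXR receptors (Nr1h2, Nr1h3) are known to raise Srebf1 transcription in liver.

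Promoter sequence was available from RefSeq for 7 of the 10 genes, at 9 start sites, on build GRCm38.p6. Scd1, Scd2 and Fads1 had no entry. The stretches just before the start sites of Fasn, Acly and Elovl5 are shown because these genes moved differently, with Fasn and Acly higher than in WT under both treatments and Elovl5 lower in KO. They lie on chr11:120824548-120824717 (minus strand), chr11:100528001-100528170 (minus strand) and chr9:77917195-77917364 (plus strand), and each is written 5′ to 3′ toward the gene. Capitals mark the searched motifs found on either strand, which are CCAAT (the box bound by NF-Y), GGGCGG (the GC box bound by Sp1) and CACGTG (an E-box). NF-Y and Sp1 are known partners of SREBPs at lipid genes.
Fasn: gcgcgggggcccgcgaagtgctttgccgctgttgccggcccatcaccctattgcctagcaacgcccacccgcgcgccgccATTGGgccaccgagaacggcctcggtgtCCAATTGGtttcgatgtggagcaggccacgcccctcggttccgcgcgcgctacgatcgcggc
Acly: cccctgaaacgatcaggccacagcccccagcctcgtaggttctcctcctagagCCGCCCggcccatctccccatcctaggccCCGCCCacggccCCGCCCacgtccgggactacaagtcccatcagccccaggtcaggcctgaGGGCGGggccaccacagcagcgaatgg
Elovl5: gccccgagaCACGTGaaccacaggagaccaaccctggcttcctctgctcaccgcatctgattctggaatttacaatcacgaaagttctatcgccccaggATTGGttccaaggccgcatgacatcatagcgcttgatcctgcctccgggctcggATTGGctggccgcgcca

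Over the 250 bases before the start, Fasn had 3 CCAAT matches, of which the pair at -62 and -59 overlap on opposite strands as CCAATTGG, and Acly had 4 GC boxes, the nearest starting 27 bases before its start. Elovl5 had 2 CCAAT matches, and a single palindromic E-box at -161. CCAAT occurred in 33.8%, GGGCGG in 32.7% and CACGTG in 6.02% of the 32851 RefSeq promoters of the same length. The letters TCACNCCAC, a sterol regulatory element, occurred in 1.05% of those promoters and in none of the 9 windows of the 7 genes. Elovl6 and Acaca had no match to any of the 4 motifs in this window, Fads2 had a single GC box, and the matches of Srebf1 differed between its 3 starts. The Acaca start used, chr11:84195438, lies inside the annotated gene, which begins at 84129672. Of the 170 bases before the start, 170 in Fads2 and 129 in Elovl6 lie in annotated exons. The lack of a match therefore holds only for the windows searched. The letters are a description of these windows, and no binding was measured.

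The libraries held 28657018 to 35842771 recovered reads each. The fibroblast markers Col1a1, Col1a2, Pdgfra, Pdgfrb, Thy1, Vim, Dcn and S100a4 were present, while Lum was at 2.02 to 11.8 normalized reads per library. CARM1i replicate 3 stood apart from the other CARM1i libraries on the third principal component, and the counts and calls below that change without it are given with and without it. WT replicate 3 also lay apart from the other WT libraries on that component, and KO replicate 1 from the other KO libraries on the fourth. Carm1, counted over the whole gene, had 794, 711 and 770 normalized reads in KO, 1112, 1072 and 986 in CARM1i, and 1079, 1143 and 1091 in WT. It was lower in KO than in WT by limma (log2 fold change -0.54 ± 0.06, adjusted p = 5.493e-07). A count over the whole gene does not measure the deleted part. Values below are normalized read counts, meaning reads divided by the authors' size factor for the library. Log2 fold changes, given ± SE, are on log2(value + 1), each p is from limma with Benjamini-Hochberg adjustment over all genes tested, and called means an adjusted p under 0.05. These are bulk libraries, so fewer cells of a type and less RNA per cell cannot be told apart.

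In KO cells, 6 of the 10 genes were higher than in WT (Fasn, Acly, Scd1, Scd2, Elovl6 and Fads1), 1 was lower (Elovl5) and 3 were not called (Acaca, Fads2 and Srebf1). Their median log2 fold change was 0.14, against -0.0043 over all tested genes. Of all tested genes, 41.9% were called in this comparison, 21.4% higher and 20.5% lower. Those include genes of far lower level than the 10, whose means were at least 1524 normalized reads. Among 11807 genes with a mean of at least 50, 3017 were called higher and 2926 lower. In CARM1i cells, 7 of the 10 were higher than in WT, the same 6 and Fads2, and none was lower, with a median of 0.21 against -0.0047 over all tested genes. The background there was 19.1% called, 10.5% higher and 8.59% lower. Among the 11807 genes with a mean of at least 50, 1555 were called higher and 1282 lower in CARM1i. The count of 0 lower in CARM1i was the same at an unadjusted p under 0.05 and with edgeR and DESeq2. The changes were small: the largest called fold among the 10 genes was 1.42, for Elovl6 in CARM1i. Both comparisons use the same WT libraries, so their likeness is not independent. Summed over the 10 genes, the libraries held 73182, 71419 and 73426 normalized reads in KO, 76771, 75394 and 73602 in CARM1i, and 63955, 62645 and 63711 in WT. The lowest treated sum lies above the highest WT sum. As a share of all normalized reads these sums were 0.234 ± 0.0027% in KO, 0.242 ± 0.0054% in CARM1i and 0.207 ± 0.00176% in WT (SD, n = 3 each).

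**Figure D1:**
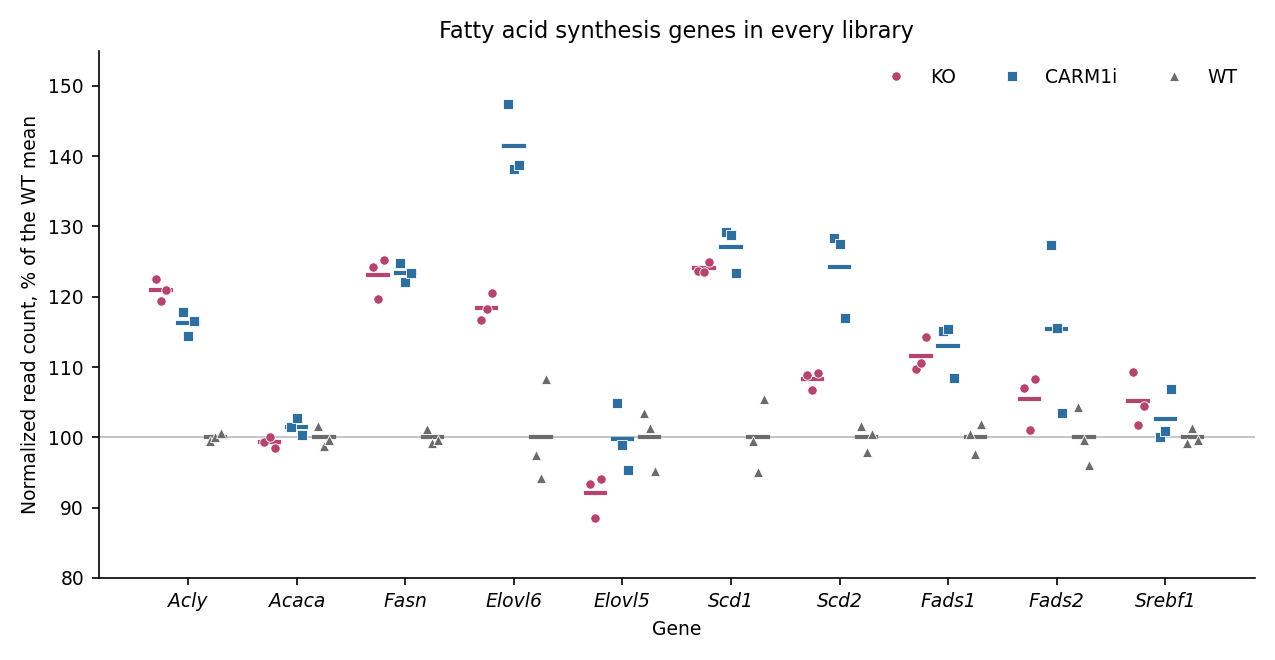
Normalized read count of each gene in each library as a percent of that gene's WT mean (vertical axis, which does not start at 0); points are libraries, short lines are group means, and KO, CARM1i and WT stand from left to right. Fasn, Acly, Scd1, Scd2, Elovl6 and Fads1 have every KO and CARM1i point above every WT point, and the Acaca points of KO and CARM1i both overlap with WT.

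The genes that make acetyl-CoA and palmitate differed among themselves, since Acly and Fasn were higher in both treated groups and Acaca, which lies between them in the pathway, was not called. Acly (ENSMUSG00000020917.17, chr11:100476353-100528000) had 15184, 14798 and 14988 normalized reads in KO, 14607, 14184 and 14444 in CARM1i, and 12331, 12394 and 12467 in WT. The highest WT library lies below the lowest library of either treated group. Its log2 fold change was 0.27 ± 0.03 in KO against WT (1.21-fold, adjusted p = 2.445e-07) and 0.22 ± 0.03 in CARM1i against WT (1.16-fold, adjusted p = 1.894e-05).

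Fasn (ENSMUSG00000025153.9, chr11:120805846-120824547) had 20500, 19747 and 20664 normalized reads in KO, 20599, 20137 and 20350 in CARM1i, and 16703, 16357 and 16444 in WT. KO and CARM1i libraries overlap each other and lie wholly above WT. The log2 fold change was 0.30 ± 0.03 in KO against WT (1.23-fold, adjusted p = 1.262e-07) and 0.30 ± 0.03 in CARM1i against WT (1.23-fold, adjusted p = 9.097e-07). For CARM1i against KO it was 0.0044, with a 95% interval of -0.06 to 0.06 (adjusted p = 0.9373). That interval leaves room for a difference of a few percent either way.

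Acaca (ENSMUSG00000020532.18, chr11:84129672-84401651) had 3393, 3414 and 3364 normalized reads in KO, 3465, 3509 and 3423 in CARM1i, and 3469, 3370 and 3403 in WT. All groups overlap with WT. The log2 fold change was -0.01 in KO against WT (95% interval -0.08 to 0.06, adjusted p = 0.8303) and 0.02 in CARM1i against WT (95% interval -0.05 to 0.09, adjusted p = 0.7063). Both intervals lie below the estimates for Fasn and Acly in the same comparisons. Of the 50-base words in Acaca transcripts, 30.4% also occur in other annotated genes, mostly in Gm5182, a copy with a mean of 158.5 normalized reads, so its count is less certain than the others. Per kilobase of exon, the ratio of Fasn to Acaca was 9.02 to 9.58 in KO, 8.95 to 9.27 in CARM1i and 7.51 to 7.57 in WT.

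Of the elongases, Elovl6 was higher in both treated groups and differed between them, and Elovl5 was lower in KO than in WT. Elovl6 (ENSMUSG00000041220.10, chr3:129532355-129638495), which lengthens palmitate to stearate, had 1538, 1558 and 1589 normalized reads in KO, 1944, 1822 and 1828 in CARM1i, and 1285, 1243 and 1427 in WT. The 3 groups do not overlap, with CARM1i highest and WT lowest. Its log2 fold change was 0.25 ± 0.05 in KO against WT (1.19-fold, adjusted p = 6.752e-04) and 0.50 ± 0.05 in CARM1i against WT (1.42-fold, adjusted p = 1.838e-06). CARM1i exceeded KO by 0.26 ± 0.05 (1.19-fold, adjusted p = 0.0011).

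Elovl5 (ENSMUSG00000032349.13, chr9:77917364-77984519), the elongase of polyunsaturated chains, had 2546, 2414 and 2565 normalized reads in KO, 2860, 2695 and 2599 in CARM1i, and 2819, 2763 and 2597 in WT. KO lies below both other groups, by a narrow gap between its highest library and the lowest of each. The log2 fold change in KO against WT was -0.12 ± 0.04 (0.92-fold, adjusted p = 0.0360). That call was lost without KO replicate 1 or 2 or WT replicate 1 or 2, with adjusted p between 0.05228 and 0.1574, and without limma's intensity trend (adjusted p = 0.1066). In CARM1i against WT it was -0.0047 (95% interval -0.10 to 0.09, adjusted p = 0.9590). CARM1i against KO gave 0.12, which did not pass with all libraries (adjusted p = 0.0680) and passed without CARM1i replicate 3 (adjusted p = 0.01844). The ratio of Elovl6 to Elovl5 per kilobase was 0.331 to 0.354 in KO, 0.37 to 0.385 in CARM1i and 0.246 to 0.301 in WT, with no overlap between groups.

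The stearoyl-CoA desaturase genes lie near each other on chromosome 19 and moved unequally. Scd1 (ENSMUSG00000037071.2, chr19:44394455-44407879) had 4171, 4163 and 4213 normalized reads in KO, 4354, 4343 and 4158 in CARM1i, and 3354, 3205 and 3555 in WT. Both treated groups lie above WT and overlap each other. The log2 fold change was 0.31 ± 0.04 in KO against WT (1.24-fold, adjusted p = 2.822e-06) and 0.35 ± 0.04 in CARM1i against WT (1.27-fold, adjusted p = 4.498e-06). For CARM1i against KO it was 0.03, with a 95% interval of -0.05 to 0.12 (adjusted p = 0.5722).

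Scd2 (ENSMUSG00000025203.5, chr19:44293674-44306864) had 15321, 15021 and 15356 normalized reads in KO, 18049, 17944 and 16456 in CARM1i, and 14287, 13778 and 14134 in WT. The 3 groups do not overlap, and CARM1i replicate 3 is the lowest of its group. In KO against WT the log2 fold change was 0.11 ± 0.03 (1.08-fold, adjusted p = 0.0122), a call lost without WT replicate 2 (adjusted p = 0.06415) and without the intensity trend (adjusted p = 0.07215). In CARM1i against WT it was 0.31 ± 0.03 (1.24-fold, adjusted p = 4.706e-06). CARM1i exceeded KO by 0.20 ± 0.03 (1.15-fold, adjusted p = 3.710e-04). The ratio of Scd2 to Scd1 per kilobase was 3.23 to 3.29 in KO, 3.54 to 3.71 in CARM1i and 3.56 to 3.85 in WT. KO libraries lie below the other groups in that ratio, and CARM1i and WT overlap. Of the 50-base words in their transcripts, 4.56% for Scd1 and 3.97% for Scd2 also occur in other annotated genes.

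The polyunsaturated chain desaturases showed smaller changes. Fads1 (ENSMUSG00000010663.4, chr19:10182888-10196877), which acts last in that route, had 6247, 6293 and 6506 normalized reads in KO, 6551, 6565 and 6170 in CARM1i, and 5718, 5557 and 5798 in WT. Every treated library is above every WT library. The log2 fold change was 0.16 ± 0.03 in KO against WT (1.12-fold, adjusted p = 9.876e-04) and 0.18 ± 0.03 in CARM1i against WT (1.13-fold, adjusted p = 0.0011). Fads2 (ENSMUSG00000024665.7, chr19:10062765-10101746), whose enzyme opens the route, had 1525, 1440 and 1542 normalized reads in KO, 1815, 1646 and 1475 in CARM1i, and 1486, 1420 and 1369 in WT. Fads2 groups overlap, and its CARM1i libraries are spread more widely than those of KO or WT. In KO against WT its log2 fold change was 0.08 (95% interval -0.05 to 0.21, adjusted p = 0.3415).

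In CARM1i against WT, Fads2 gave 0.20 ± 0.06 (1.15-fold, adjusted p = 0.0261). This is the least stable call of the 10 genes in CARM1i against WT, since it was lost in 4 of the fits that leave out 1 library, without CARM1i replicate 1 or 2 or WT replicate 2 or 3 (adjusted p between 0.06117 and 0.1494). It was also lost without the intensity trend (adjusted p = 0.1334) and with only the compared groups in the fit (adjusted p = 0.05073). CARM1i against KO gave 0.13 (adjusted p = 0.1531) with all libraries and passed without CARM1i replicate 3 (adjusted p = 0.00684). The ratio of Fads1 to Fads2 per kilobase overlapped among all groups, at 2.81 to 2.99 in KO, 2.47 to 2.87 in CARM1i and 2.64 to 2.90 in WT.

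Srebf1 (ENSMUSG00000020538.15, chr11:60199089-60222581), the gene of SREBP-1, was not called in any comparison. It had 2758, 2569 and 2637 normalized reads in KO, 2526, 2548 and 2697 in CARM1i, and 2502, 2557 and 2515 in WT. KO libraries lie just above WT, and CARM1i overlaps both. The log2 fold change was 0.07 in KO against WT (95% interval -0.01 to 0.15, adjusted p = 0.1541) and 0.04 in CARM1i against WT (95% interval -0.05 to 0.12, adjusted p = 0.5794). The count sums the isoforms of 3 RefSeq starts, and does not separate them. Its exons share 109 bases with Rai1 on the opposite strand, and the strand setting of the counting is not given in the sources used here.

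**Figure D2:**
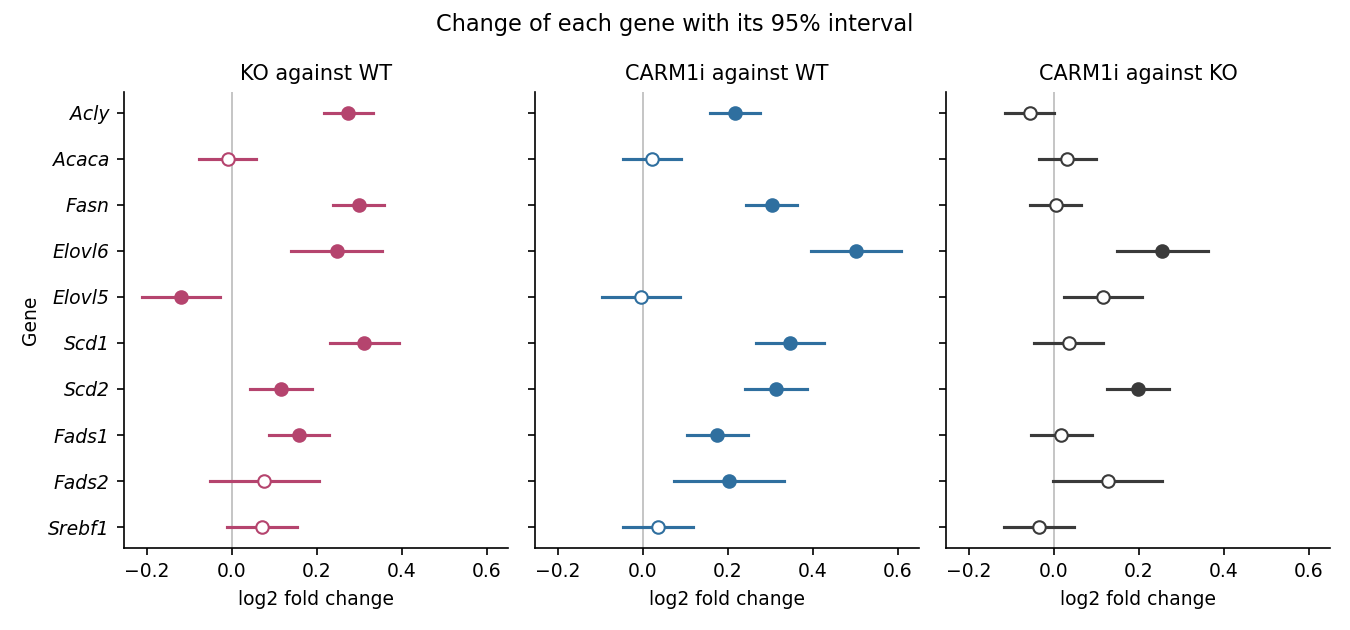
Log2 fold changes of the 10 genes in KO against WT, CARM1i against WT and CARM1i against KO, with 95% intervals from limma; filled points passed an adjusted p of 0.05. Elovl6 and Scd2 are the genes whose CARM1i against KO interval lies above 0 and passes.

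In CARM1i against KO, 2 of the 10 genes were higher in CARM1i, Elovl6 and Scd2, and none was lower, with a median log2 fold change of 0.03. Among all tested genes 23.6% were called, 12.1% higher and 11.5% lower. At an unadjusted p under 0.05 the genes higher in CARM1i numbered 3, edgeR and DESeq2 each gave 2, and none of these settings gave a gene lower. Without CARM1i replicate 3 the genes called higher numbered 4, with Elovl5 and Fads2 added. Acly was 0.06 lower in CARM1i than in KO on the log2 scale, which did not pass (adjusted p = 0.1547).

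Normalized reads per kilobase of exon allow levels to be set between genes only approximately, since each length is the union of all annotated exons. The level of Acaca is the least certain, as 30.4% of its 50-base words also occur in other annotated genes. In KO, Acly at 2840 ± 36.5 and Scd2 at 2788 ± 33.7 led and overlap each other (SD, n = 3). In CARM1i, Scd2 led alone at 3200 ± 163. In WT the order was Scd2 at 2574 ± 47.8, Acly at 2348 ± 12.9, Fasn at 1507 ± 16.4, Fads1 at 1183 ± 25.5, Elovl5 at 774 ± 32.8, Scd1 at 689 ± 35.9, Srebf1 at 448 ± 5.05, Fads2 at 432 ± 17.8, Elovl6 at 205 ± 15.0 and Acaca at 200 ± 2.97. Neighbours that overlap in WT are Srebf1 with Fads2 and Elovl6 with Acaca. Scd1 stood above Elovl5 in KO and in CARM1i and below it in WT. Elovl6 reached 290 in CARM1i, clear of Acaca at 203, whereas they overlap in WT.

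**Figure D3:**
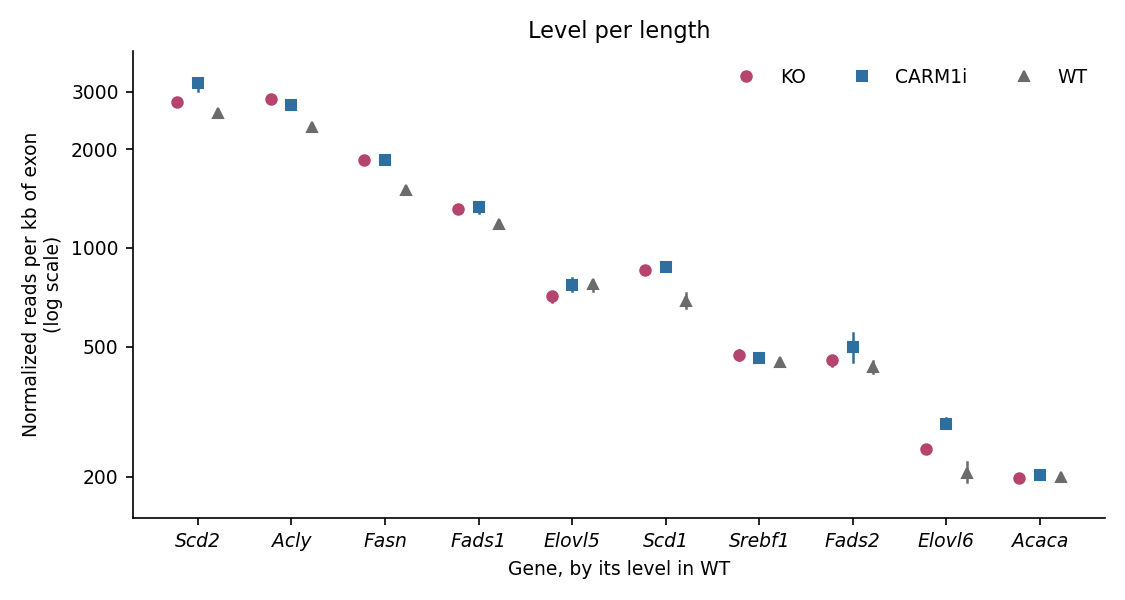
Normalized reads per kilobase of exon for the 10 genes on a log axis, ordered by their WT mean, with a point for each group mean and a vertical line from the lowest to the highest library of KO, CARM1i and WT (hidden where shorter than the point). Scd2 and Acly stand highest in each group, and Elovl6 in CARM1i stands clear of Acaca.

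Over the 9 libraries, the genes with values most like those of Fasn were found by the root mean square difference of log2 values, each centred on its own mean, among 10933 genes with a mean of at least 100. The nearest outside the pathway list were Gga2 at 0.0276, Scap at 0.0282, Tomm34 at 0.0300 and Igf2r at 0.0312. Acly ranked 15 at 0.0394 and Scd1 ranked 24 at 0.0455, Fads1 ranked 226 and Elovl5 ranked 6098.

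Among 9 tested genes of SREBP control and LXR, 6 were higher than in WT in KO and 4 in CARM1i, with none lower. The median log2 fold changes were 0.26 and 0.16. For this list and those that follow, the shares over all tested genes were 21.4% higher and 20.5% lower in KO against WT. They were 10.5% and 8.59% in CARM1i against WT, and 12.1% and 11.5% in CARM1i against KO. Insig1, which retains the precursor and is itself an SREBP target, averaged 6269 ± 221 normalized reads in KO, 7504 ± 445 in CARM1i and 4101 ± 287 in WT. Its log2 fold change was 0.61 ± 0.05 in KO against WT (adjusted p = 1.091e-08) and 0.87 ± 0.05 in CARM1i against WT (adjusted p = 2.54e-09). No gene of the list changed more among those called. Scap, the escort of the precursor, averaged 16860 ± 401 in KO, 16524 ± 393 in CARM1i and 13656 ± 51.4 in WT, and was called in both comparisons with WT (log2 fold changes 0.30 and 0.27). Srebf2 averaged 2915 ± 111 in KO, 2886 ± 131 in CARM1i and 2586 ± 83.3 in WT, with log2 fold changes of 0.17 ± 0.04 (adjusted p = 0.0030) and 0.16 ± 0.04 (adjusted p = 0.0133). The Srebf2 call in CARM1i was lost without CARM1i replicate 2, WT replicate 1, WT replicate 2 or the intensity trend. Nr1h2 and Insig2 passed in KO against WT and did not in CARM1i against WT, Mbtps2 passed in both, and Mbtps1, Mid1ip1 and Nr1h3 passed in neither. The Mbtps2 call in KO was lost without KO replicate 2 or 3, WT replicate 1 or the intensity trend. Its call in CARM1i was lost without CARM1i replicate 1, WT replicate 1 or the intensity trend. Nr1h3 averaged 14.5 in KO, 14.6 in CARM1i and 7.6 in WT. The genes of this list called higher in CARM1i fell from 4 to 2 without WT replicate 1, and also to 2 without the intensity trend. They numbered 5 without CARM1i replicate 3.

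**Figure D4:**
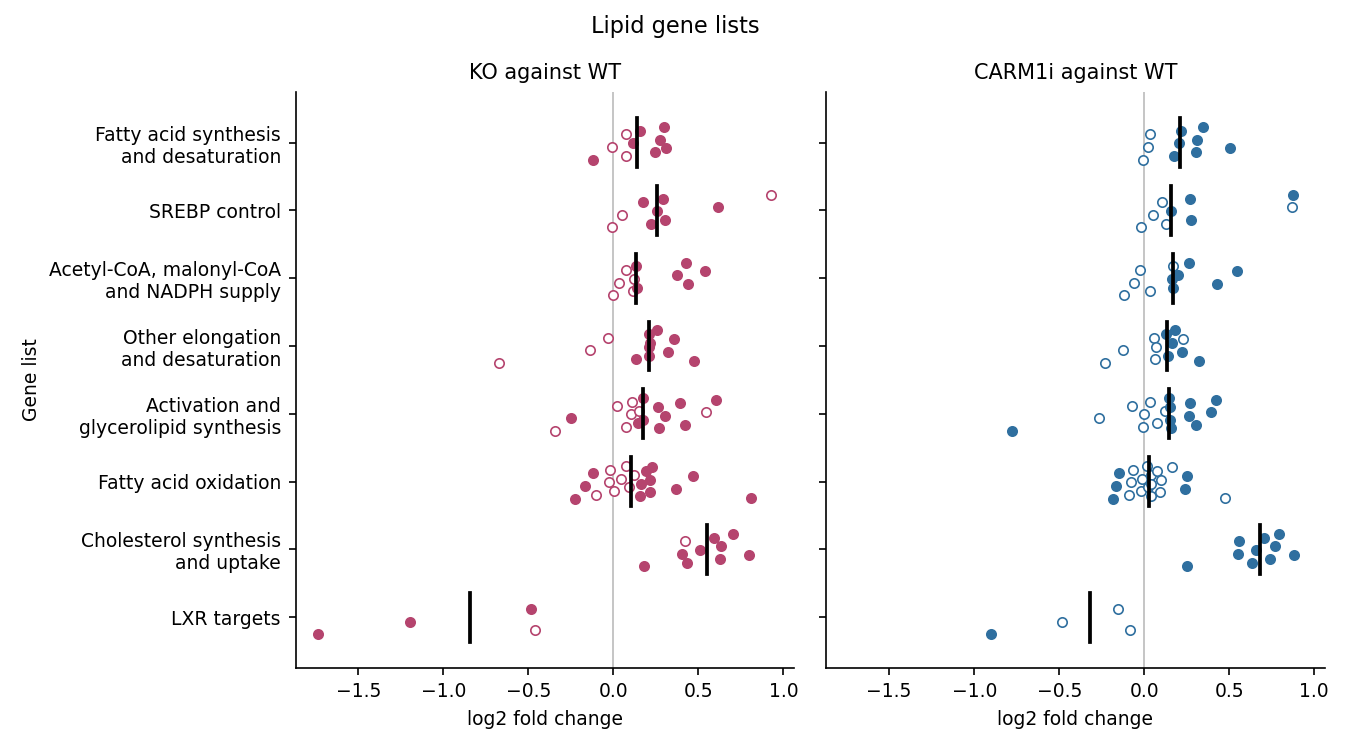
Log2 fold changes of the tested genes of the pathway lists in KO against WT and CARM1i against WT, with a point per gene, filled where the adjusted p was under 0.05, and a line at each list's median. The median of the cholesterol list is the highest of the 8 lists in both comparisons (0.55 and 0.68), and all LXR targets lie below 0.

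Genes that supply acetyl-CoA, malonyl-CoA and NADPH numbered 11 tested, of which 6 were higher in KO and 6 in CARM1i, with none lower and median log2 fold changes of 0.13 and 0.17. For this list, the SREBP list and the next list, the counts of 0 lower against WT were also 0 at an unadjusted p under 0.05 and with edgeR and DESeq2. Slc25a1, the mitochondrial citrate exporter that feeds Acly, averaged 3071 ± 113 normalized reads in KO, 2616 ± 57.2 in CARM1i and 2282 ± 7.41 in WT. It was called in both comparisons with WT and was 0.23 lower in CARM1i than in KO on the log2 scale (adjusted p = 1.594e-04). G6pdx, a source of NADPH, averaged 3494 ± 62.6 in KO, 3238 ± 122 in CARM1i and 2694 ± 89.3 in WT, with log2 fold changes of 0.38 and 0.27. Acat2, a cytosolic thiolase of the sterol route, was higher by 0.44 in KO and 0.43 in CARM1i. Without the intensity trend, the genes called higher fell from 6 to 3 in KO and from 6 to 3 in CARM1i. Without CARM1i replicate 3 they numbered 5 in CARM1i.

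Of 12 tested genes of other elongation and desaturation steps, 9 were higher in KO and 6 in CARM1i, with none lower and median log2 fold changes of 0.21 and 0.13. Cyb5a, the cytochrome that gives electrons to the desaturases, averaged 3827 ± 21 normalized reads in KO, 3443 ± 140 in CARM1i and 2750 ± 32.9 in WT. Its log2 fold changes were 0.48 and 0.32, and CARM1i was 0.15 lower than KO (adjusted p = 0.0040). Degs1, the desaturase of ceramide synthesis, averaged 12773 ± 75.3 in KO, 10697 ± 696 in CARM1i and 10228 ± 145 in WT. It was called in KO against WT (0.32) and not in CARM1i against WT (0.06), and was lower in CARM1i than in KO by 0.26 (adjusted p = 5.804e-05). The elongation enzyme Hsd17b12 was higher by 0.26 in KO and 0.16 in CARM1i. Without the intensity trend, the genes called higher in CARM1i fell from 6 to 3.

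Among 17 genes of fatty acid activation and glycerolipid synthesis, 9 were higher and 1 lower in KO (median log2 fold change 0.17), and 9 were higher and 1 lower in CARM1i (median 0.14). The 1 lower in CARM1i was 0 without CARM1i replicate 2 or 3, any of the WT replicates or the intensity trend. Without CARM1i replicate 3, the list had 8 higher in CARM1i and 10 higher in KO. Lpin1, a phosphatidate phosphatase, averaged 1252 ± 11.2 normalized reads in KO, 1107 ± 85.6 in CARM1i and 825 ± 36.2 in WT. Pcyt1a, of phosphatidylcholine synthesis, averaged 3577 ± 88.4 in KO, 3204 ± 90.5 in CARM1i and 2674 ± 72.9 in WT. For Acsl3, an acyl-CoA synthetase, CARM1i was above KO, as it was for Elovl6 and Scd2. Acsl3 averaged 1716 ± 48.4 in KO, 2090 ± 124 in CARM1i and 1592 ± 23.2 in WT, with a log2 fold change of 0.28 in CARM1i against KO (adjusted p = 1.648e-04). Of 20 tested genes of fatty acid oxidation, 9 were higher and 3 lower in KO (median 0.11), and 2 were higher and 3 lower in CARM1i (median 0.03). Over all tested genes, 21.4% were higher and 20.5% lower in KO, and 10.5% were higher and 8.59% lower in CARM1i. Acadvl, a mitochondrial acyl-CoA dehydrogenase, averaged 3365 ± 81.6 in KO, 3477 ± 182 in CARM1i and 3941 ± 107 in WT, and was lower than in WT by 0.23 in KO and 0.18 in CARM1i on the log2 scale. Without the intensity trend the oxidation genes higher in KO were 5 and the activation and glycerolipid genes higher in CARM1i were 5. The oxidation genes called lower were 1 in KO without KO replicate 2, and 1 in CARM1i without CARM1i replicate 1, WT replicate 2, WT replicate 3 or the intensity trend, and 2 in CARM1i without CARM1i replicate 3. The 2 oxidation genes higher in CARM1i were 1 without the intensity trend. In CARM1i against KO, the supply genes had 0 higher and 2 lower, and the other elongation and desaturation genes had 0 higher and 3 lower, by limma. At an unadjusted p under 0.05, with edgeR and without CARM1i replicate 3, the elongation and desaturation list had 1 higher. The activation and glycerolipid genes had 2 higher and 6 lower, and the oxidation genes had 0 higher and 5 lower. The 2 higher were 1 without KO replicate 1 or 2, any of the CARM1i replicates or WT replicate 2, and with DESeq2. The 6 lower were 2 without KO replicate 1 or 3, and 3 without KO replicate 2, CARM1i replicate 2 or the intensity trend. The 5 lower were 3 without KO replicate 2 or 3, CARM1i replicate 1 or the intensity trend, and 4 without CARM1i replicate 3, and the 2 supply genes were 1, with G6pdx lost, without KO replicate 2 or 3, CARM1i replicate 1 or 2, WT replicate 1 or the intensity trend.

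The cholesterol genes, which share SREBP control, had 9 of 10 higher in KO and 10 of 10 in CARM1i, with median log2 fold changes of 0.55 and 0.68. Those medians exceed the 0.14 and 0.21 of the fatty acid genes in the same comparisons. No test of that difference was made. Without the intensity trend the cholesterol genes called higher were 8 in KO and 8 in CARM1i. Over the fits leaving out 1 library they were 8 to 10 in each. The LXR targets had 3 of 4 lower in KO and 1 of 4 in CARM1i, with median log2 fold changes of -0.84 and -0.32. The 1 in CARM1i, Abcg1, was not called without CARM1i replicate 1 or 2, any of the WT replicates or the intensity trend. Abca1, the cholesterol exporter, was at 546, 398 and 512 normalized reads in KO, 1134, 1078 and 800 in CARM1i, and 1083, 1108 and 1119 in WT. Srebf1, also an LXR target in liver, was not called.

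Cell state moved with the groups. The 10 mitosis genes were all lower in both treated groups, with summed levels of 14559 to 15022 normalized reads in KO, 24123 to 26168 in CARM1i and 35845 to 37070 in WT. Fibroblast markers summed to 187519 to 199505 in KO, 219852 to 243538 in CARM1i and 250404 to 260288 in WT, with 6 of 8 tested lower and 1 higher in KO and 3 lower and 1 higher in CARM1i. The 3 lower in CARM1i were 2 without CARM1i replicate 3 and 1 without the intensity trend. Of the 10 adipocyte markers, 4 had a row (Fabp4, Lipe, Pparg and Cebpa) and summed to 427 to 462 in KO, 318 to 398 in CARM1i and 319 to 346 in WT. Adipoq, Plin1, Cidec, Lep, Retn and Cfd have no row in the table analysed here. Lipe averaged 215 in KO, 185 in CARM1i and 159 in WT, and Pparg 114 in KO, 104 in CARM1i and 82.8 in WT. Fabp4 averaged 54.4 in KO, 33.5 in CARM1i and 46.2 in WT, and Cebpa 55.6 in KO, 37.9 in CARM1i and 45.1 in WT. In CARM1i, Fabp4 and Cebpa thus averaged below WT, and Lipe and Pparg above it. Lipe and Pparg were called higher in KO against WT, Pparg no longer without KO replicate 2 or 3 or WT replicate 1 or 2. None of the 4 was called in CARM1i against WT. Macrophage markers with a row (5 of 8) summed to 304 to 341 in KO, 294 to 329 in CARM1i and 259 to 321 in WT, with 1 of 4 tested higher and 1 lower in KO and none called in CARM1i. The 1 lower in KO was 0 without KO replicate 2 or 3 or WT replicate 2. Of the hepatocyte markers only Alb had a row, at 1.96 to 13.9 over all libraries. The part of these shifts in the changes of the 10 genes was not tested.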

How the data were processed

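Polyadenylated RNA of 9 libraries was sequenced with a stranded kit, per the labels' protocols. Tools listed in the submitters' processing notes are DESeq 1.18.0, HTSeq 0.6.0 and TopHat2 2.0.10, with build mm10. Which annotation and strand setting were used is not given in the sources used here. As deposited, the values are a normalized signal per gene and library: the authors divided read counts by size factors. Whole reads were recovered for 100% of values in every library (tolerance 1e-06 of a read). The normalized value of 1 read was nearest to 1 in KO replicate 2, at 1.008. Of the gene IDs, 16413 matched GENCODE M21 without version and 15 did not.

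Log2(value + 1) was tested by limma (3.58.1, R 4.3.3) using its intensity trend, with genes of a mean under 10 left out, all 9 libraries in a single fit of 3 groups, and Benjamini-Hochberg adjustment at 0.05. The design allowed for either counts or normalized values. Alternatives changed the filter (none, or a mean of 50), the scaling (quantile, or a common total), the test (DESeq2 1.42.0 or edgeR 4.0.16, both on the recovered reads, or limma lacking the trend), the pseudocount (0.5 or 10) and the fit (compared groups only, a replicate block, each library left out). The fit was tested on simulated data, with planted changes larger than any called among the 10 genes and in genes with a mean of at least 50. That simulation does not test calls of the size seen here.

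The 10 genes and the 12 other lists were chosen with earlier results of these data known. From each list up to 4 genes with the smallest adjusted p were eligible to be named, plus the SREBP control and adipocyte lists and the 4 genes nearest to Fasn. Levels per kilobase use the union of GENCODE exons. Promoter stretches and motif shares come from RefSeq. Precision is limited by 3 libraries per group.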

Additional observations from a re-analysis of the deposited data

How the results depend on the processing

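Over 20 alternatives and 30 fold changes of the 10 genes, 576 of 600 values kept direction and side of the threshold, 13 lost the call, 3 gained it and 8 changed sign. The sign changes were all of values near 0 that were not called: for Acaca, 0.0017 in KO without WT replicate 1 (range over left-out libraries -0.0193 to 0.0017) and -0.0071 in CARM1i with quantile normalization; for Elovl5 in CARM1i, 0.0008 to 0.0270 without CARM1i replicate 2 or 3 or WT replicate 1 or 2 (0.0198 and 0.0053 for the WT libraries; range -0.0420 to 0.0270); for Fasn in CARM1i against KO, -0.0156 without KO replicate 2 and -0.0040 without CARM1i replicate 1 (range -0.0156 to 0.0172). The count of genes lower in KO was 0 without the intensity trend, and leaving out 1 library gave 0 to 1. The count higher in CARM1i against KO ranged from 2 to 4 over the fits leaving out 1 library, with 4 without CARM1i replicate 3. Elovl5 in CARM1i against KO also passed with quantile normalization (adjusted p = 0.0479). Over all genes, CARM1i against WT gave 1797 calls without the trend, against 2784 with it, and 1936 to 2677 over the fits leaving out 1 library. With the replicate block, calls numbered 5865 for KO and 2553 for CARM1i, each against WT, and 3156 between CARM1i and KO. No count of the 10 genes changed. Same-numbered libraries deviated with correlations of -0.087 to 0.0268, so no shared deviation was seen. That check cannot settle whether the numbers pair libraries. The cause of the moved counts was not tested. With 3 libraries per group, differences of about 8 to 9% among the 10 genes fell on either side of the threshold. In KO against WT, Scd2 (8.30%) and Elovl5 (-7.97%) were called. In CARM1i against KO, Elovl5 (8.31%) and Fads2 (9.17%) were not.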
